A study of Homo sapiens with 4 samples.

Results

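The IGF-binding protein family was followed in LN-229, a human glioblastoma cell line in wide use, as 24 probe sets of 9 genes on an Affymetrix 3' expression array. The members were all probe sets whose only gene symbol in the platform annotation is IGFBP1 to IGFBP7, IGF1R or IGF2R, out of 54613 probe sets and 19775 genes. Of them 16 read the binding proteins and 8 the receptors, and 0 probe sets were left aside for naming a member together with another gene. The 2 induced arrays came from LN-229 cells given doxycycline for 48 h to express WIF1 (WNT inhibitory factor 1, a secreted antagonist of WNT signalling), and the 2 control arrays from LN-229 cells without induction. Per the labels the replicates are biological. No array had doxycycline without WIF1, so effects of the drug and of WIF1 cannot be told apart. The single WIF1 probe set lay near the floor, at 2.93 and 3.03 in induced and 2.98 and 2.90 in control cells, and does not check the labels. Values are log2 intensities made with RMA, and a difference is the induced mean minus the control mean, with the standard error (SE) of a limma fit over all probe sets and n = 2 in each group. The number of arrays limits the precision. Apart from that, an exact 2-sided permutation test of 2 against 2 arrays cannot go below p = 0.333, since only 6 splits exist. The family was picked by name with this comparison's differences already known, chiefly the low IGFBP5 values, so the differences below are a description and not evidence of their own.

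The insulin-like growth factors IGF1 and IGF2 act on cells through the receptor tyrosine kinase IGF1R, which feeds the PI3K/AKT and MAP kinase pathways. The 6 classical binding proteins, IGFBP1 to IGFBP6, are secreted, hold IGFs with high affinity and are opened by proteases that release the ligand, while IGFBP7 binds IGFs weakly. IGF2R, the cation-independent mannose 6-phosphate receptor, takes IGF2 to lysosomes and carries lysosomal enzymes. IGFBP2 is well known in glioma, where it is often abundant, and IGFBP5 binds heparan sulfate and matrix proteins.

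Most of the family differed little between the groups, and IGFBP5 stood apart with lower values in induced cells. Its brightest probe set was at 0.570 of the control level, the lowest difference of all 19775 genes when each is read by its brightest probe set. Its 6 probe sets were unequal, with log2 differences up to -0.07 and a mean of -0.40. IGFBP7 had one bright probe set lower and another higher. IGF1R was slightly higher and IGF2R lower in some of their probe sets, and IGFBP6 hardly differed. In bulk RNA, fewer cells that make a transcript and less of it per cell cannot be told apart.

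At an adjusted p under 0.05 (limma, Benjamini-Hochberg over all probe sets), 0 of the 24 member probe sets were called, as were 0.0% of all probe sets. Adjusted p ran from 0.227 to 0.982 over the members. With p under 0.05 before adjustment, 6 members were lower, beside 5.27% of all probe sets, and 2 were higher, beside 4.75% of all probe sets. The 6 lower members were 211959_at, 203424_s_at and 1555997_s_at of IGFBP5, 201162_at of IGFBP7, and 201392_s_at and 1569052_at of IGF2R. The 2 higher members were 201163_s_at of IGFBP7 and 203627_at of IGF1R. Both induced arrays lay below both controls in 11 of the 24 members and above them in 3, where 23.5% of all probe sets were below and 17.9% above. Subtracting each array's median left 6 lower and 2 higher members, but turned the background to 3.42% lower and 6.37% higher. It also gave 10 members below and 5 above without overlap, beside 18.4% and 23.5% of all probe sets. The 6 probe sets of IGFBP5 supply 5 of the 11, and probe sets of 1 gene share its RNA, so they are not separate observations. The median difference was -0.08 over the 24 members and -0.01 over all probe sets. Without IGFBP5 the 10 other binding protein probe sets had a median of -0.06, with 6 lower and 4 higher by sign. Leaving out any 1 array could not change the sign of these 6 lower and 2 higher members, whose groups do not overlap. Of the higher ones, 201163_s_at then ran from 0.19 to 0.35 and 203627_at from 0.10 to 0.16. Such fits have 1 array in a group, so only the size of a difference is read from them.

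**Figure D1:**
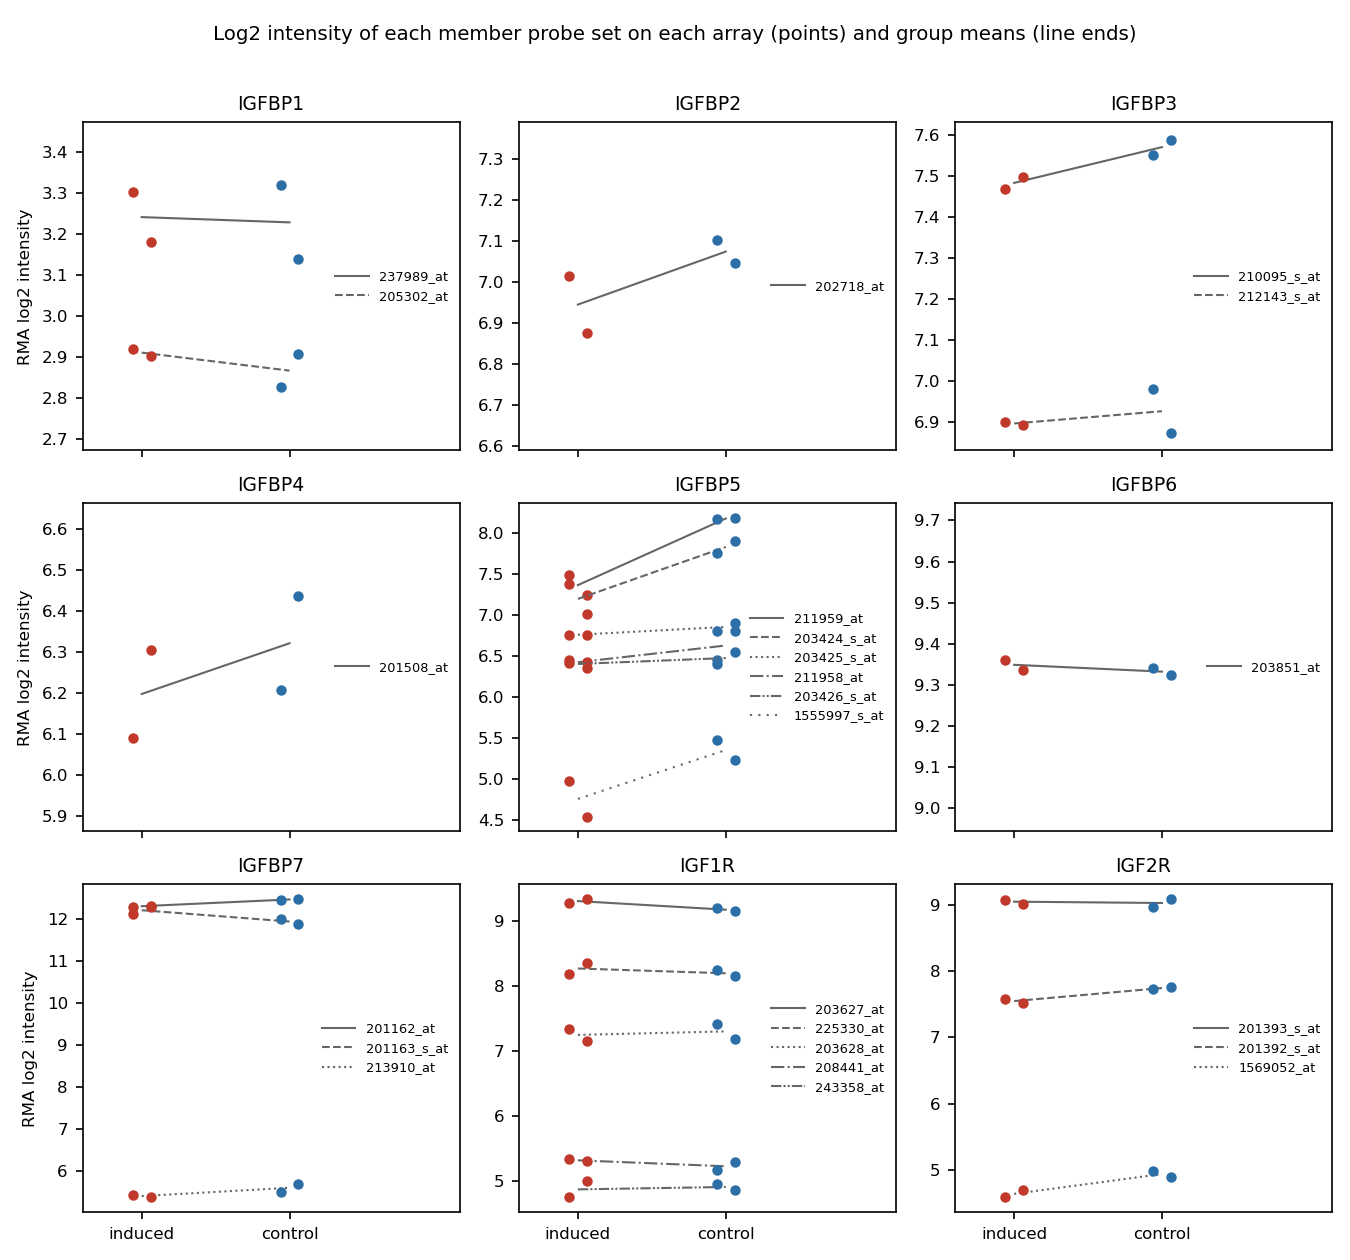
Log2 intensity (y axis, each panel on its own scale) of every member probe set on the 2 induced arrays (red, left) and the 2 control arrays (blue, right), 1 panel per gene. Lines join the group means of a probe set. In IGFBP5 the lines of 211959_at, 203424_s_at and 1555997_s_at climb steeply towards the controls and the other 3 are nearly flat, and in IGFBP7 the lines of 201162_at and 201163_s_at slope in opposite directions.

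IGFBP5 was read by 6 probe sets, and they fell into steep and shallow ones. The brightest, 211959_at, had 7.48 and 7.24 in induced cells against 8.17 and 8.17 in control cells, a difference of -0.81 (SE 0.091, adjusted p = 0.227). Both induced arrays lay far below both controls, which differed by 0.0071 between themselves. Probe set 203424_s_at gave 7.38 and 7.01 in induced cells against 7.75 and 7.90 in control cells, a difference of -0.63 (SE 0.13). The dim 1555997_s_at gave 4.97 and 4.54 in induced cells against 5.47 and 5.23 in control cells, a difference of -0.59 (SE 0.17). In all 3 the second induced array was the lowest of the 4, and without it the differences were -0.69, -0.45 and -0.38.

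The other 3 IGFBP5 probe sets differed little. Probe set 203425_s_at, designed from the RefSeq messenger RNA, had 6.76 and 6.76 in induced cells against 6.80 and 6.91 in control cells, a difference of -0.10 (SE 0.077). Probe set 211958_at had 6.42 and 6.43 in induced cells against 6.45 and 6.80 in control cells, and its difference of -0.20 (SE 0.12) was -0.03 without the second control array. For 203426_s_at the groups overlapped, with 6.45 and 6.35 in induced cells against 6.40 and 6.55 in control cells. All 6 differences were thus below 0, from -0.81 to -0.07, and their mean was -0.40, so the size of the IGFBP5 difference depends on which probe set is read.

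The ratio of 2 probe sets within an array leaves out anything that scales the whole array. For 203425_s_at minus 211959_at this log2 ratio was -0.73 and -0.48 in induced cells against -1.37 and -1.27 in control cells, a shift of 0.72. For 203424_s_at minus 211959_at it was -0.11 and -0.23 in induced cells against -0.42 and -0.28 in control cells, a shift of 0.18. The 5 shifts against 211959_at ran from 0.18 to 0.74. They had to be positive, since 211959_at has the lowest difference of the 6 sets, and they share it as denominator, so they only restate the spread of the differences. Where on the transcript each set lies was not analysed here.

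The region upstream of IGFBP5 is shown because this gene had the largest difference, and that of IGFBP6 because it had the smallest among binding proteins above the array median. Both are the 250 bases before the RefSeq start of the gene (build GRCh38.p14), 5′ to 3′ on the gene's strand. Capitals mark matches on either strand to any of 6 motifs: TATAAA, the variant TATTTAA (added after reading the IGFBP5 sequence), the GC box GGGCGG, the E box CANNTG, the TCF/LEF site CTTTGAT and the forkhead site GTAAACA.
IGFBP5, chr2:216695550-216695799, minus strand: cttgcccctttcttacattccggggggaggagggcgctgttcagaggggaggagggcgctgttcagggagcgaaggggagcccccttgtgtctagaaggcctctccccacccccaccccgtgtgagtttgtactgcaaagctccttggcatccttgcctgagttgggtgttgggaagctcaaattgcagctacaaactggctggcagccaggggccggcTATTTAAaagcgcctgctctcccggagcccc
IGFBP6, chr12:53097417-53097666, plus strand: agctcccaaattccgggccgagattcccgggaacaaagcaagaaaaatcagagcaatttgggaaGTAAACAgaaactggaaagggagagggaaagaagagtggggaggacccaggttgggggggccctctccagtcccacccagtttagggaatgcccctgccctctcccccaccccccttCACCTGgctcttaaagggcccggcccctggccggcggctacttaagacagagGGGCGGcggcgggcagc

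The IGFBP5 window held 1 match, TATTTAA, from 31 to 25 bases before the start. The IGFBP6 window held a forkhead match from 186 to 180 bases, an E box from 69 to 64 bases and a GC box from 17 to 12 bases before the start. Of all 35116 windows of this length in the table, 4.17% held TATTTAA, 10.7% TATAAA, 42.6% the GC box, 61.8% the E box, 2.26% the TCF/LEF site and 2.98% the forkhead site. Both windows had 61.2% G and C, against a median of 58.0% over all windows. A match describes these letters only, and binding was not measured.

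IGFBP5 and IGFBP2 are adjacent protein-coding genes on chromosome 2 in the RefSeq table, as are IGFBP1 and IGFBP3 on chromosome 7. IGFBP2, which also carries an integrin-binding RGD motif, had 7.01 and 6.88 in induced cells against 7.10 and 7.05 in control cells, a difference of -0.13 (SE 0.080, adjusted p = 0.602). Both induced values lay just below both controls, and without the second induced array the difference was -0.06.

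IGFBP3, the main carrier of IGFs in blood, was read by 2 probe sets. Its brighter one, 210095_s_at, had 7.47 and 7.50 in induced cells against 7.55 and 7.59 in control cells, a difference of -0.09 (SE 0.063), with no overlap. The other, 212143_s_at, gave -0.03 (SE 0.076) and its groups overlapped. IGFBP1, a liver protein under insulin control, stayed near the floor, at 2.90 to 3.30 in induced cells and 2.83 to 3.32 in control cells over its 2 probe sets.

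IGFBP4, the substrate on which the protease PAPPA was first described, had 6.09 and 6.31 in induced cells against 6.21 and 6.43 in control cells. Its difference of -0.12 (SE 0.12) was smaller than the gap between replicates in either group (0.216 in induced and 0.228 in control cells). IGFBP6, which prefers IGF2 over IGF1, had 9.36 and 9.34 in induced cells against 9.34 and 9.32 in control cells, a difference of 0.02 (SE 0.045), and its groups overlapped.

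IGFBP7, a secreted protein of the matrix and vessel wall, had 2 bright probe sets that differed in opposite directions, both drawn from the same RefSeq record in the annotation. Probe set 201162_at had 12.29 and 12.31 in induced cells against 12.46 and 12.47 in control cells, a difference of -0.16 (SE 0.029, adjusted p = 0.437). Probe set 201163_s_at had 12.12 and 12.29 in induced cells against 12.01 and 11.87 in control cells, a difference of 0.27 (SE 0.068, adjusted p = 0.472). In neither set did the groups overlap. The dim 213910_at gave 5.43 and 5.36 in induced cells against 5.50 and 5.68 in control cells, a difference of -0.20 (SE 0.11).

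Within each array, the log2 ratio of 201163_s_at to 201162_at was -0.17 and -0.02 in induced cells against -0.45 and -0.60 in control cells, a shift of 0.43. This shift only restates the opposite differences of both sets. The mean over the 3 IGFBP7 probe sets was -0.03, so no single direction can be given for this gene. Over the 11 alternative settings 201162_at ran from -0.19 to -0.14 and 201163_s_at from 0.19 to 0.35. Only the other scalings could have changed a sign. The remaining settings left the difference as it was or left out 1 array, which cannot turn groups without overlap. With arrays centred on their medians 201162_at gave -0.14 and 201163_s_at 0.29. After cyclic loess scaling they gave -0.19 and 0.25. The probe set for the antisense gene IGFBP7-AS1 was at the floor in all arrays, at 2.69 and 2.61 in induced and 2.61 and 2.76 in control cells.

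**Figure D2:**
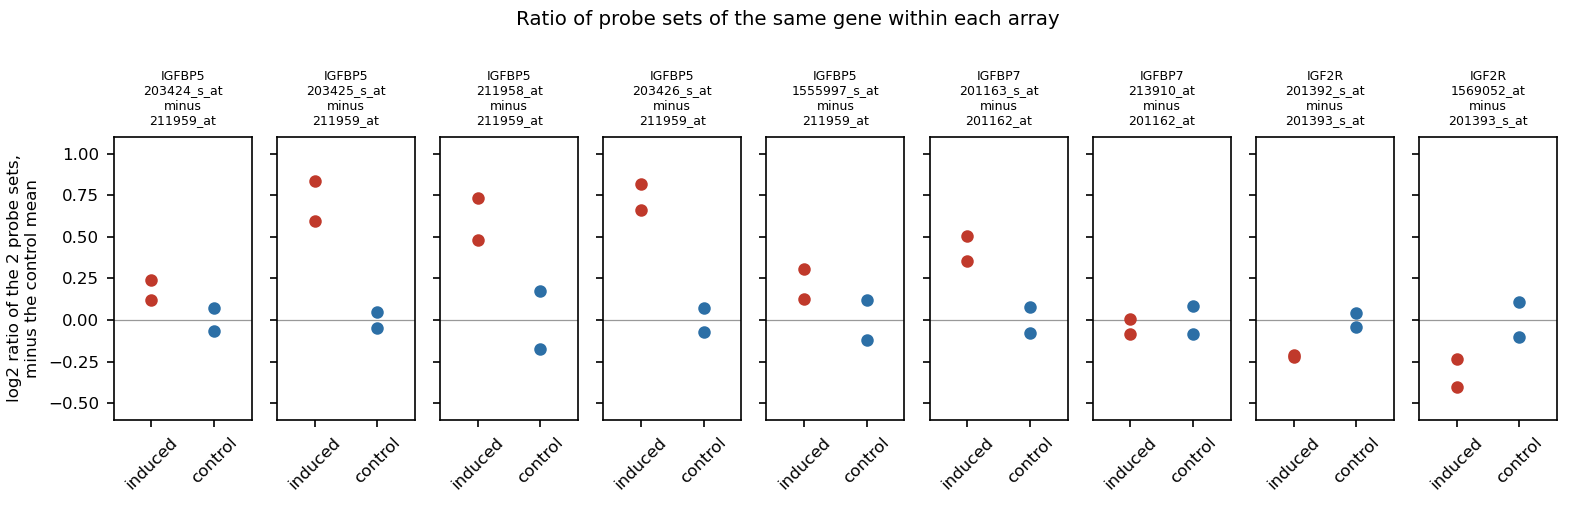
Log2 ratio of 2 probe sets of the same gene within each array, minus its mean over the control arrays (y axis), for the induced arrays (red, left) and control arrays (blue, right). Ratios of 3 IGFBP5 probe sets to 211959_at and of the bright IGFBP7 pair lie well above the controls in both induced arrays, with mean shifts of 0.43 to 0.74, and both IGF2R ratios lie below.

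The ends of control transcripts are measured separately on the array and showed small differences between groups. The 3' minus 5' log2 difference of ACTB was 0.033 and 0.11 in induced cells and -0.036 and 0.021 in control cells. That of GAPDH was -0.043 and -0.047 in induced cells and -0.067 and -0.069 in control cells. For the spiked-in dap control it was 2.66 and 2.93 in induced and 2.59 and 2.69 in control cells, with overlap. ACTB and GAPDH were thus shifted to the 3' end in induced cells, and the part of this shift in the unequal probe sets of IGFBP5 and IGFBP7 was not tested.

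IGF1R, the receptor that carries the IGF signal, had 5 probe sets. The brightest, 203627_at, had 9.28 and 9.34 in induced cells against 9.20 and 9.16 in control cells, a difference of 0.13 (SE 0.050, adjusted p = 0.482), with no overlap. The dim 208441_at, at 5.34 and 5.31 in induced cells against 5.17 and 5.30 in control cells, also did not overlap. The other 3 sets overlapped between groups, and the differences of all 5 ran from -0.05 to 0.13.

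IGF2R had 3 probe sets that disagreed. Its brightest, 201393_s_at, had 9.08 and 9.02 in induced cells against 8.97 and 9.09 in control cells, a difference of 0.02 (SE 0.060) with overlapping groups. The mean over the 3 sets had the opposite sign, at -0.16. Probe set 201392_s_at had 7.58 and 7.51 in induced cells against 7.73 and 7.76 in control cells, a difference of -0.20 (SE 0.064, adjusted p = 0.472). The dim 1569052_at had 4.58 and 4.69 in induced cells against 4.98 and 4.89 in control cells, a difference of -0.30 (SE 0.10). Both of these lay below the controls in both induced arrays, and their ratios to the brightest set shifted by -0.22 and -0.32 without overlap. These shifts had to be negative, since 201393_s_at has the highest difference of the 3 sets, so they only restate the differences.

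**Figure D3:**
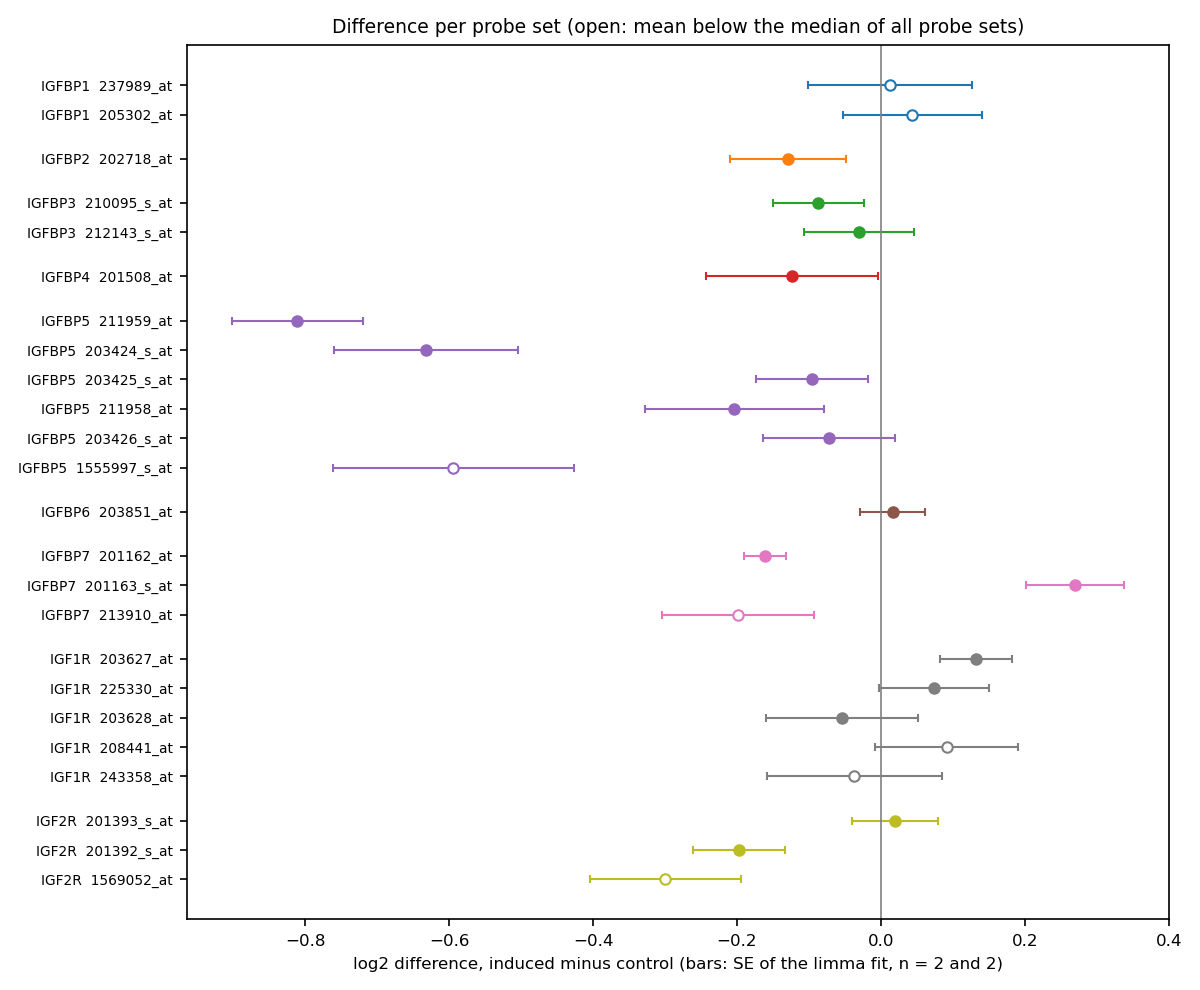
Induced minus control log2 difference (x axis) of each of the 24 member probe sets, with the SE of the limma fit as bars (n = 2 and 2). Filled points have a mean of at least the array median (6.16 on the log2 scale) and open points a lower one. The 6 IGFBP5 points lie left of 0 from -0.81 to -0.07, and the bright IGFBP7 sets stand on either side of 0.

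The gene profiles most like IGFBP5 were sought over the 4 arrays among 12722 genes with a mean at or above the array median, by Euclidean distance between log2 profiles centred on their own mean. The 5 nearest were TMEM100 at a distance of 0.337, ITGA9 (an integrin alpha chain) at 0.385, PMP2 (a myelin fatty acid binding protein) at 0.414, ST8SIA5 (a sialyltransferase) at 0.418 and AATK (a kinase) at 0.431. PMP2 had 8.32 and 8.01 in induced cells against 8.56 and 8.57 in control cells. Like IGFBP5, the genes TMEM100, ITGA9, PMP2 and AATK were lowest in the second induced array, while ST8SIA5 was lowest in the first. The 5 were picked for likeness to the IGFBP5 profile, so a shared pattern over the arrays is built into the choice. Read by brightest probe sets, the IGFBP5 difference is the lowest of all genes, so none of these 5 could be lower. Theirs were -0.50 to -0.38. For the brightest IGFBP7 set the 5 nearest were SOBP, RIDA, GSTA4, PGM1 and TFDP1, at distances of 0.0073 to 0.017. With 4 arrays, these distances say little about likeness beyond these samples.

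Beyond the members, 104 genes of the wider IGF axis were listed and 94 measured. At an adjusted p under 0.05, 0 passed, as did 0.0% of all genes. Before adjustment, 8 were higher and 5 lower with p under 0.05, beside 6.48% of all genes higher and 4.73% lower. Their median difference was -0.01, and that of all genes was 0.00.

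Among the ligands and relatives, 4 of 7 were measured and 0 passed either threshold. IGF1 had 6.23 and 6.27 in induced cells against 6.25 and 6.10 in control cells, a difference of 0.08 (SE 0.091), with overlapping groups and 5 sets from -0.15 to 0.16. The probe sets of IGF2 name a second gene as well and were not used. Among the 7 carriers and related proteins, the serine protease HTRA1, whose amino end resembles IGFBPs, had 9.57 and 9.67 in induced cells against 9.77 and 9.77 in control cells, a difference of -0.15 (SE 0.052). KAZALD1 and HTRA3 differed by 0.04 and 0.03, with sets from -0.15 to 0.04 and from 0.03 to 0.12, and IGFALS, which holds the ternary complex of blood, was below the array median.

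The proteases that cleave binding proteins, with their inhibitors, held the largest difference of the wider axis, that of STC2, although the list's median over 15 genes was 0.01. Of these genes, 4 higher and 1 lower had p under 0.05 before adjustment, beside 6.48% of all genes higher and 4.73% lower. STC2, a secreted inhibitor of PAPPA, had 9.37 and 9.35 in induced cells against 8.91 and 8.89 in control cells, which is 0.46 higher (SE 0.047, adjusted p = 0.188). Another STC2 set gave 0.32. PAPPA, the metalloprotease that cleaves IGFBP4 and IGFBP5, had 7.53 and 7.45 in induced cells against 7.25 and 7.00 in control cells, a difference of 0.36 (SE 0.099). This brightest set is of the type that can cross-hybridise (x_at), and the 11 PAPPA sets ran from -0.20 to 0.36. ADAM9 differed by 0.28 (SE 0.073), and its other sets by -0.02 to 0.03.

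Of the receptor adapters, IRS1, which docks PI3K on the activated receptor, had 9.69 and 9.69 in induced cells against 9.53 and 9.37 in control cells, which is 0.24 higher (SE 0.063, adjusted p = 0.472). The 3 IRS1 sets ran from 0.06 to 0.24. The adapter CRKL differed by -0.10 (SE 0.035), and its other set by -0.11. The brightest set of the insulin receptor INSR gave -0.19 (SE 0.098), the lowest of 5 sets that ran up to -0.01. The list median was -0.02 over 17 genes. In the PI3K, AKT, mTOR and FOXO list, 0 of 21 genes were higher and 1 was lower with p under 0.05 before adjustment, beside the same shares of all genes as above. That gene was AKT1, at 9.63 and 9.58 in induced cells against 9.74 and 9.74 in control cells, a difference of -0.13 (SE 0.045). The brightest set of RHEB gave -0.07, but its 9 sets ran from -0.22 to 0.26 and give no direction. The 2 sets of the PI3K subunit PIK3CD gave 0.01 and 0.14.

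Partners of the binding proteins at the cell surface and matrix had a median of 0.01 over 15 genes. Thrombospondin 1 (THBS1) differed by 0.39 (SE 0.082), but its 7 sets ran from -0.27 to 0.39. The integrin chain ITGB3 had 7.51 and 7.67 in induced cells against 7.99 and 7.87 in control cells, a difference of -0.34 (SE 0.081), with 7 sets from -0.34 to 0.08. FHL2, a nuclear partner of IGFBP5, differed by 0.09 (SE 0.036). Genes tied to IGF2R as ligands or in the mannose 6-phosphate path had a median of -0.05 over 12 genes. The cytokine LIF was at 0.16 (SE 0.040), and GNPTG and NAGPA, which act in making the mannose 6-phosphate tag, were both at -0.11. The 3 IGF2 mRNA-binding proteins, which share only a name with the binding proteins, lay between -0.05 and 0.04 in their brightest sets. All sets of IGF2BP1 ran from -0.20 to 0.03 and those of IGF2BP3 from -0.06 to 0.13.

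**Figure D4:**
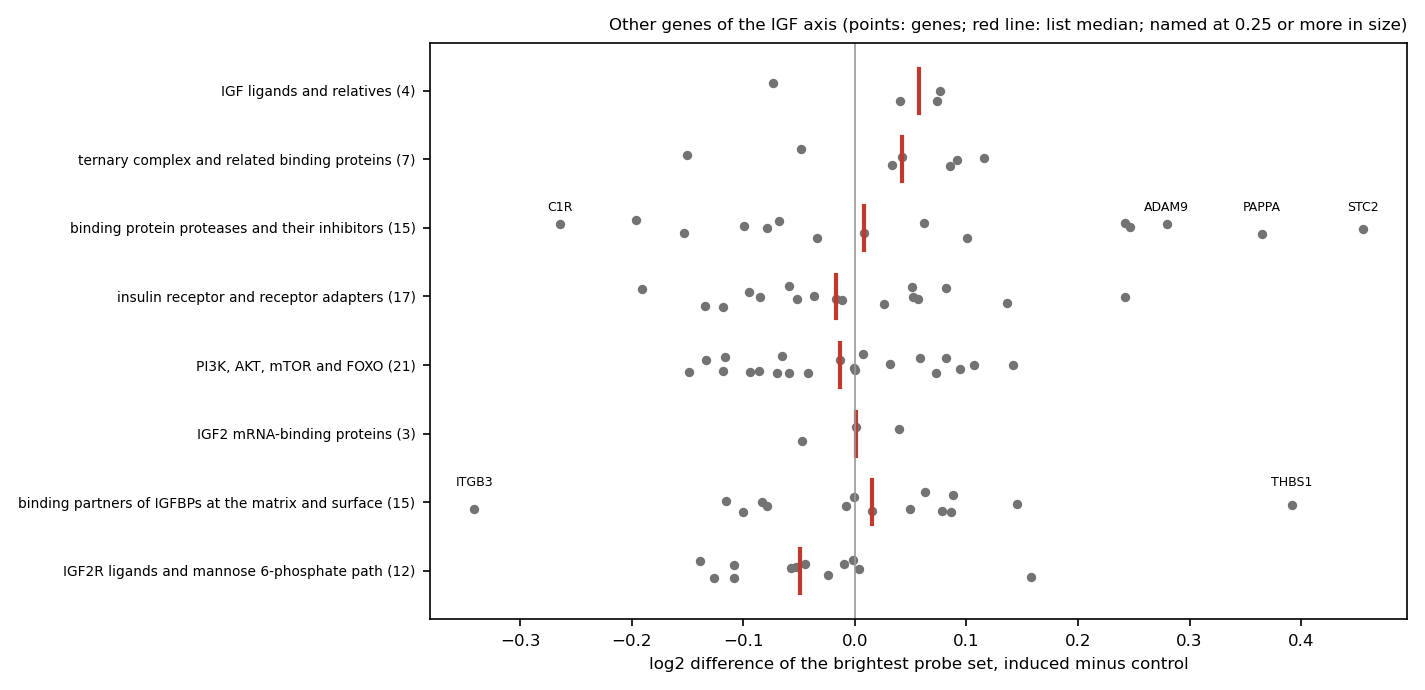
Induced minus control log2 difference (x axis) of the brightest probe set of each measured gene in 8 lists of the wider IGF axis, with the number of genes in brackets. Red lines are list medians, which lie between -0.05 and 0.06, and genes with a difference of at least 0.25 in size are named, led by STC2 at 0.46 and ITGB3 at -0.34.

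Markers of the labelled cell type were checked in the same arrays. Vimentin (VIM), nestin (NES), CD44, S100B, SOX2 and FABP7 were bright, while GFAP and AQP4 were dim. The astrocyte marker GFAP was at 5.76 and 5.51 in induced and 5.44 and 5.92 in control cells, below the array median of 6.16. Of the 10 glioma and astrocyte markers, 8 were lower by sign, where 51.2% of all genes were. With p under 0.05 before adjustment 4 were lower and 1 higher, beside 4.73% of all genes lower and 6.48% higher. Among the lower ones were FABP7 at -0.19 (SE 0.034) and S100B at -0.12 (SE 0.038), and the higher one was EGFR at 0.14 (SE 0.058). Their part in the IGFBP5 difference was not tested. The defining markers PTPRC of leukocytes, CDH5 of endothelium and EPCAM of epithelium had means of 3.22 to 3.98, near the floor. Other markers of these lists lay above the array median of 6.16, with means of 6.72 for CD3E, 6.91 for PECAM1, 6.50 for VWF and 7.68 for KRT8, so absence of these cell types is not shown. The neuronal SYT1 was bright, at 9.42 and 9.31 in induced and 9.07 and 8.95 in control cells. The other neuronal markers differed by 0.11 (SNAP25, mean 7.30), 0.03 (RBFOX3, mean 6.45) and -0.18 (STMN2, dim at a mean of 4.67). The epithelial keratin KRT18 was also bright, at 11.66 and 11.61 in induced and 11.61 and 11.67 in control cells.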

How the data were processed

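RNA from 4 LN-229 cultures was made into biotin-labelled cRNA and read on 1 array per culture, per the labels' protocols. The authors deposited log2 intensities for each probe set. Per the submitters' processing notes they used RMA and the affy package, whose versions are not given in the sources used here. RMA corrects background, equalises the distribution of probe intensities between arrays and combines the probes of a set. A shift common to most genes is thereby removed, and differences of dim sets are compressed. Array medians were 6.15 and 6.15 in induced cells and 6.16 and 6.19 in control cells.

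Leaving out 62 control sets of 54675 rows, 54613 entered a fit in R 4.3.3 using limma 3.58.1 (lmFit, eBayes with an intensity trend, 2-sided, Benjamini-Hochberg over all probe sets). The script was tested on simulated data, where it had to recover changes larger than any member difference. That check does not show that differences of the members' size can be detected. The limma test had 6.27 degrees of freedom, and log2 differences were not shrunken. Gene names came from the platform annotation, which gives 41091 probe sets 1 symbol, 1801 several and 11721 none. A gene was represented by its brightest probe set. The members and lists were chosen with earlier results of these data known. Named were all members, up to 3 genes per list of smallest p with a mean at or above the array median (6.16), and the 5 nearest profiles of the 2 binding proteins with the largest difference. IGFALS and the markers printed were picked with their values in view. Upstream sequences are from RefSeq (GRCh38.p14), where 7 of the 9 members were matched. Alternatives were a replicate block, other eBayes settings, filters on dim sets, other scalings, the mean over probe sets and leaving out each array.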

Additional observations from a re-analysis of the deposited data

How the results depend on the processing

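Of the 24 member probe sets, 0 were called at an adjusted p under 0.05 in every alternative tried, and the lowest adjusted p of any member was 0.0633, for IGFBP5 set 211959_at after cyclic loess. Over all probe sets 2 were called with robust eBayes, 5 with arrays centred on their medians, 11 after cyclic loess and 2 at a threshold of 0.1, and the cause was not tested. The members higher at an unadjusted p under 0.05, 2 as reported, numbered 1 with the replicate block and 1 without the intensity trend. The members lower, 6 as reported, numbered 6 with the block, 5 without the intensity trend and 4 among sets at or above the array median. The labels give the groups the same replicate numbers without saying that a number marks a shared batch, and deviations of same-numbered arrays correlated at 0.056, so the arrays were treated as unpaired. The sign of the difference was the same in all settings for 17 member probe sets and changed in 7. The block, the eBayes settings and the filters could not change a difference. Leaving out 1 array could not change the sign where the groups did not overlap, so the 17 say little about stability. Averaging all probe sets of a gene gave IGF2R -0.16, the opposite sign to the 0.02 of its brightest set, and moved IGFBP5 to -0.40, IGFBP7 to -0.03, IGF1R to 0.04 and IGFBP3 to -0.06. Depth does not apply to arrays, and IGFBP1 near the floor allows no statement on small differences. Of 88 recomputed list medians 1 moved by more than the spread between replicates, that of the IGF2 mRNA-binding proteins at -0.06 without the first control array.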
